A study of Zea mays with 9 samples.

Results

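Growth-regulating factor (GRF) genes encode plant transcription factors, and most of them carry a site for the microRNA (miRNA) miR396. Described here are 10 GRF genes of maize, taken as a fixed list of gene IDs out of the 45498 genes and miRNA precursors in the count table of the study. The list is only a sample of the family: the study's list of miR396 targets holds 7 further GRF genes, which are given as context. All 10 IDs matched a name in the RefSeq gene table, namely GRF1 (GRMZM2G034876), GRF2 (GRMZM2G099862), GRF3 (GRMZM2G105335), GRF5 (GRMZM2G129147), GRF6 (GRMZM2G041223), GRF9 (GRMZM2G124566), GRF10 (GRMZM2G096709), GRF12 (GRMZM2G119359), GRF14 (GRMZM2G098594) and GRMZM5G893117. The last is also named GRF9 in that table and is called by its ID to keep them apart, and some other names are shared as well, so that GRMZM2G178261 is a second gene named GRF1.

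The study asked how strongly miRNA processing by DICER-LIKE1 (DCL1) acts in different tissues of the shoot apex. The central zone (CZ), which holds the stem cells of the meristem, and the P3 leaf primordium were cut out by laser from apices of 14-d-old seedlings. They came from wild-type and mutant seedlings of the same families, in which the weak allele dcl1-2 had been crossed repeatedly into the inbred B73, with 2 RNA-seq libraries of pooled apices for each of the 4 groups of genotype and tissue. A small RNA library, 1 in number, gave the mature miRNAs of whole wild-type B73 apices of the same age. In dcl1-2, DCL1 activity is reduced and not lost, and all 4 groups were amplified linearly before sequencing.

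GRF proteins act together with coactivators named GRF-interacting factors (GIFs) and promote cell proliferation in young organs, leaves above all. miR396 pairs with a conserved stretch of most GRF transcripts, usually within the sequence that encodes the DNA-binding WRC domain, and directs their cleavage. In leaves of Arabidopsis and maize, GRF genes freed from miR396 give larger organs, and a rise in miR396 gives smaller ones. DCL1 is the enzyme that cuts miRNA precursors into mature miRNAs.

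The mature sequences of miR396 are shown first, since they define what the GRF sites pair with. Capitals mark the seed, bases 2 to 8 from the 5′ end:
miR396a, miR396b and miR396g: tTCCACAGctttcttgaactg
miR396c and miR396d: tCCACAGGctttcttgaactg
miR396e and miR396f: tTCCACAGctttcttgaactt
miR396h: tCCCACAGctttattgaactg

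The sequence of miR396a and that of miR396e share a seed. Of 664 miR396 reads in the apex library, 586 had the sequence of miR396a, miR396b and miR396g, which is 88.3% (Wilson 95% interval 85.6% to 90.5%). The sequence of miR396c and miR396d had 55 reads, that of miR396e and miR396f had 23, and that of miR396h had none, which allows up to 0.0291 RPM (reads per 1000000, on the scale of the deposited RPM column) by a floor of 3 reads. Together the family made up 0.0275% of the 2414776 mature miRNA reads (Wilson 95% interval 0.0255% to 0.0297%) and ranked 12 of 28 families. There was 1 library, and these intervals cover counting error only.

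The miR396 sites of the GRF transcripts, as the study's target list gives them, differ at a single position among the 8 of the 10 genes for which they were read. They are shown as the stretches that miR396 pairs with, and whether the site bears on the expression described below was not tested. The capital marks position 15, counted from 1 at the 5′ end of the site:
GRF1, GRF3, GRF5, GRF6, GRF9, GRF12 and GRF14: ccguucaagaaagcCuguggaa
GRF2: ccguucaagaaagcAuguggaa

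The GRF2 site differs from the common site by C15A. For GRF10, which is not in that target list, and for GRMZM5G893117, which is, no site was analysed here. Among the 7 further GRF genes, 5 had the common site, and GRMZM2G178261 and GRMZM5G853392 had a site that differs from it by C1U and C15A. Aligned to the common site, the abundant miR396a sequence left 1 mismatch and 1 bulged base of the site, and miR396c left 1 mismatch and no bulge. With the GRF2 site, miR396a again left 1 mismatch and 1 bulge, whereas miR396c left 2 mismatches. By the study's annotation, the site was placed in the 5′ UTR in GRF12 and in the later part of the open reading frame in GRF9. In GRF1, GRF2, GRF3, GRF5, GRF6 and GRF14 it was placed in the first part of the frame. These placements rest on the gene models and were not checked here. The bases beside the site tell some pairs apart less than others: over 20 bases on each side, GRF12 and GRF14 differed at 0 bases before and 2 after the site, and GRF5 and GRF6 at 0 and 1. GRF12 and GRF14 were thus nearly alike around the site, though it is annotated to different parts of their transcripts.

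The CZ libraries held 24753974 to 30327603 counts and the P3 libraries 8626824 to 10328582, so that a level of 1 RPM (counts per 1000000, over the library's total in the table) stood for 8.63 to 10.3 counts in a P3 library and 24.8 to 30.3 in a CZ library. The CZ libraries were sequenced single-end and the P3 libraries paired-end, so that layout and tissue cannot be told apart. As sums, markers matched the tissue labels: the sum of 9 KNOX genes of the meristem ranged from 1241 to 1502 RPM over CZ libraries and from 82.4 to 100.9 RPM over P3 libraries. For 11 YABBY and KANADI genes of the leaf the ranges were 10.5 to 54.2 RPM (CZ) and 825 to 1103 RPM (P3). Most of the KNOX sum was kn1, with means of 1047 RPM in wild-type CZ and 3.41 RPM in wild-type P3. Between wild-type tissues, edgeR called 7 of 8 KNOX genes tested lower in P3, against 31% of all genes. It called 9 of 10 leaf genes tested higher, against 31.3%. The KNOX gene knox7 did not pass (30.9 RPM in the CZ and 27.7 RPM in P3, edgeR adjusted p 0.187). Transcripts of DCL1 itself were at 65.4 and 62.2 RPM in wild-type CZ and 84.0 and 91.7 RPM in dcl1-2 CZ. In P3 they were at 73.2 and 100.6 RPM in wild type and 140.7 and 136.3 RPM in dcl1-2, so that the mutant libraries were the higher ones in both tissues. By the edgeR test described below, the difference passed in P3 (log2 fold change 0.74, edgeR adjusted p 0.0114). It did not pass in the CZ (0.43, edgeR adjusted p 0.272). These counts do not show which allele was transcribed.

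In P3 primordia, 2 of the 10 GRF genes were higher in dcl1-2 than in wild type, namely GRF12 by 1.75-fold and GRF9 by 12.1-fold, and none was lower. A gene was called where the adjusted p of edgeR's quasi-likelihood test (Benjamini-Hochberg over all genes tested) was under 0.05. By that rule 4.5% of all 22498 genes tested in P3 were called, 3.34% as higher and 1.16% as lower. The other 8 GRF genes did not pass the test, with log2 fold changes between -1.09 and 0.46. An unadjusted p under 0.05 in edgeR was found in 7 of the 10, against 4029 of all 22498 genes. GRF1 and GRMZM5G893117 were among the 7, with lower values in dcl1-2. The median of the 10 was 0.35 on the log2 scale, against -0.02 over all genes tested. In these bulk samples, fewer cells that express a gene and less RNA per cell cannot be told apart.

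GRF12 (chr9:25709471-25712485 in B73 RefGen_v3, plus strand) was at 135.2 and 146.9 RPM in wild-type P3 and at 224 and 245 RPM in dcl1-2 P3. Both mutant libraries were above both wild-type libraries, with little spread within a genotype. The log2 fold change was 0.80 (standard error 0.13) with an edgeR adjusted p of 0.00185. Without dcl1-2 P3 replicate 2 the value was 0.73 and the edgeR adjusted p 0.065, above the threshold.

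GRF9 (chr4:155804713-155806066, plus strand) was at 2.59 and 2.67 RPM in wild-type P3, from 25 and 23 counts. In dcl1-2 P3 it was at 12.1 and 48.5 RPM, from 110 and 501 counts. Every mutant library was above every wild-type library, and the 2 mutant libraries were far apart from each other. The log2 fold change was 3.60 (standard error 0.51) with an edgeR adjusted p of 6e-04. Without dcl1-2 P3 replicate 2, the higher library, it fell to 2.26 with an edgeR adjusted p of 0.0039, so the call was kept while its size rested largely on 1 library.

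**Figure D1:**
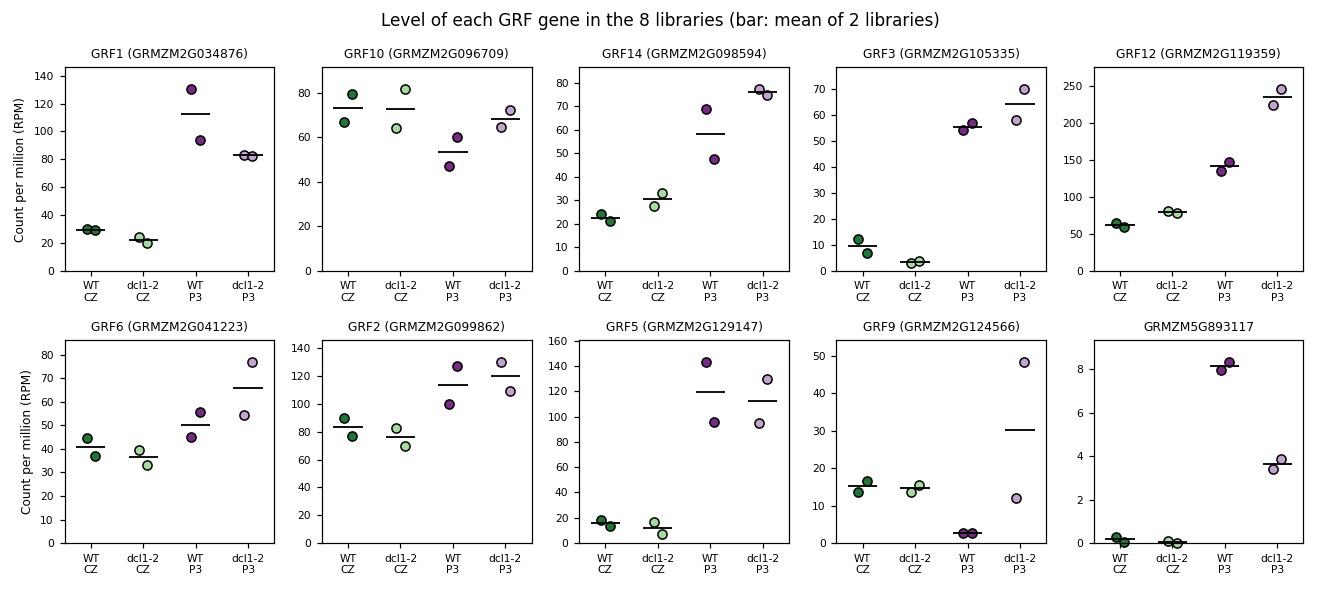
RPM (counts per 1000000, over the library total, vertical axis, a scale of its own in each panel that starts at 0) of the 10 GRF genes in the 2 libraries of each of 4 groups: wild type (WT) and dcl1-2, CZ and P3. Points are libraries and horizontal bars their means; GRF9 rises from 2.59 and 2.67 RPM in wild-type P3 to 12.1 and 48.5 RPM in dcl1-2 P3, and GRF12 is higher in both dcl1-2 P3 libraries than in any other.

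GRF14 (chr6:60193338-60196491, minus strand) was at 68.8 and 47.8 RPM in wild-type P3 and at 77.3 and 74.6 RPM in dcl1-2 P3, a log2 fold change of 0.44 (standard error 0.18, edgeR adjusted p 0.212). It lies close to GRF12 in its site and flanks. The groups did not overlap, and wild-type replicate 1 was nearly at the mutant level; without that library the log2 fold change was 0.77 with an edgeR adjusted p of 0.00672. Its model shares 1287 bases with a gene on the other strand, GRMZM2G098731, whose CZ counts were almost equal to its own. In wild type and then dcl1-2 these were 706, 550, 661 and 830, against 732, 561, 682 and 840 for GRF14. In P3 they were 522, 314, 521 and 619, against 665, 412, 702 and 771. Since it is not stated whether strand was used in counting, reads of these genes cannot be told apart. Every GRF14 value here and below carries this doubt.

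GRF10 (chr7:144980649-144983328, plus strand), which is outside the miR396 target list, was at 46.9 and 60.2 RPM in wild-type P3 and 64.5 and 72.0 RPM in dcl1-2 P3. Its log2 fold change of 0.42 (standard error 0.17, edgeR adjusted p 0.182) did not pass. GRF3 (chr4:177122616-177124549, plus strand) was at 54.0 and 56.7 RPM in wild-type P3 and 58.1 and 69.8 RPM in dcl1-2 P3. The mutant libraries were again above the wild-type ones, by less than the test could call (log2 fold change 0.28, standard error 0.16, edgeR adjusted p 0.405).

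GRF6 (chr2:12195366-12200646, plus strand) was at 44.9 and 55.9 RPM in wild-type P3 and at 54.6 and 77.2 RPM in dcl1-2 P3 (log2 fold change 0.46, edgeR adjusted p 0.201). GRF2 (chr2:225159420-225162831, minus strand), the gene with the differing site, was at 100.2 and 126.9 RPM in wild type and 130.5 and 109.1 RPM in dcl1-2 (log2 fold change 0.15, edgeR adjusted p 0.673). GRF5 (chr10:140968794-140972587, minus strand) was at 143.5 and 95.5 RPM in wild type and 94.9 and 130.0 RPM in dcl1-2 (log2 fold change -0.03, edgeR adjusted p 0.964). In each of these 3 genes the genotypes overlapped in P3. All of GRF5 lies within GRMZM2G109753, a gene of the other strand with 1763 to 2475 counts in P3, so its counts carry the same doubt about strand as those of GRF14.

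GRF1 and GRMZM5G893117 had lower values in dcl1-2 P3. GRF1 (chr5:200291798-200295328, minus strand), which bears the common site, was at 130.2 and 94.1 RPM in wild-type P3 and 83.1 and 82.6 RPM in dcl1-2 P3. The difference of -0.38 on the log2 scale (standard error 0.17) did not pass the test (edgeR adjusted p 0.257), and without wild-type P3 replicate 2 it was -0.62 with an edgeR adjusted p of 0.00769. GRMZM5G893117 (chr5:211724540-211725862, minus strand) was at 7.97 and 8.35 RPM in wild type and 3.41 and 3.87 RPM in dcl1-2, with a log2 fold change of -1.09 (standard error 0.41, edgeR adjusted p 0.161). In both genes each mutant library was below each wild-type library. In all, both mutant libraries were above both wild-type libraries in 5 of the 10 genes and below them in 2, against 20.8% and 29.2% of all genes tested.

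Summed over the 10 genes, wild-type P3 had 715 ± 27.8 RPM and dcl1-2 P3 858 ± 77.9 RPM (SD, n = 2). GRF12 alone gave 18.4% and 21.1% of the sum in the wild-type libraries and 27.9% and 26.9% in the mutant ones. Among cell type markers, the 4 HD-ZIP IV genes of the epidermis summed to 371 and 372 RPM in wild-type P3 and to 491 and 506 RPM in dcl1-2 P3. In that list 2 of 4 genes passed the edgeR test as higher, against 3.34% of all genes tested, and none of its genes was at 0. The KNOX and leaf lists had 0 genes called in P3 by edgeR or DESeq2. In edgeR, 2 and 4 of their genes had an unadjusted p under 0.05, as had 4029 of all 22498 genes. The part of the epidermal genes in the GRF values was not tested.

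**Figure D2:**
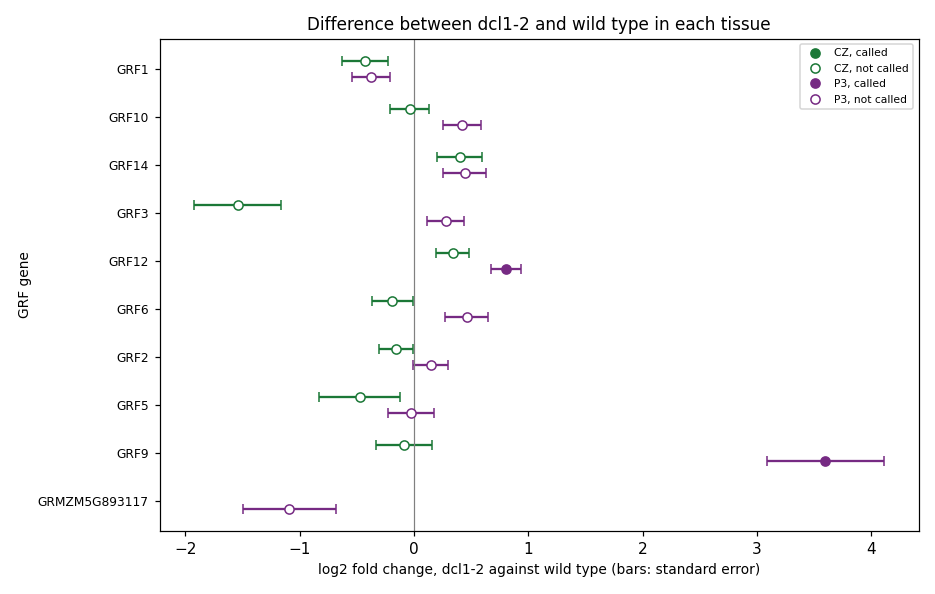
log2 fold change of dcl1-2 against wild type (horizontal axis, bars are standard errors) for the 10 GRF genes (vertical axis) in the CZ (green) and P3 (purple); filled points passed edgeR's test at an adjusted p under 0.05 and GRMZM5G893117 was too low to be tested in the CZ. Only GRF12 (0.80) and GRF9 (3.60) in P3 are filled, and GRF3 in the CZ lies at -1.54.

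In the CZ, no GRF gene passed the test between dcl1-2 and wild type, at a background of 0.292% of 19897 genes called, 0.116% as higher and 0.176% as lower. Of the 9 genes tested by edgeR, GRF3 and GRF12 had an unadjusted p under 0.05, as had 2098 of all 19897 genes. With DESeq2 GRF3 alone passed, as lower. GRF3 gave 12.4 and 6.72 RPM in wild-type CZ, from 376 and 179 counts, and 2.95 and 3.73 RPM in dcl1-2 CZ, from 73 and 94 counts. Both mutant libraries were below both wild-type libraries, and the wild-type libraries were themselves well apart. The log2 fold change was -1.54 (standard error 0.38) with an edgeR adjusted p of 0.142. Fitted with DESeq2 the adjusted p was 0.0324, with all 8 libraries in 1 edgeR model 0.0116, with no filter on low counts 0.004, and without wild-type CZ replicate 2 0.00555. In the other direction, without wild-type CZ replicate 1 the log2 fold change was -1.05 with an edgeR adjusted p of 0.453, and without dcl1-2 CZ replicate 1 or 2 the adjusted p was 0.289 and 0.233.

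Leaf markers had lower values in these dcl1-2 libraries too. The 11 YABBY and KANADI genes summed to 37.8 and 54.2 RPM in wild-type CZ and to 10.5 and 24.7 RPM in dcl1-2 CZ. Of 7 tested, 0 were called by edgeR or DESeq2, with a median log2 fold change of -1.57. An unadjusted p under 0.05 in edgeR was found in 5, as in 2098 of all 19897 genes tested. Of these 5, YAB6, YAB3 and YAB5 had 90, 67 and 103 counts in wild-type CZ replicate 1 and 0 in replicate 2. They thus rest on 1 wild-type library. The remaining genes, yab10 and yabby15, were lower in both dcl1-2 libraries than in both wild-type ones. At 0 counts were 5 of the 11 genes in each dcl1-2 library, and 1 and 6 of them in wild-type CZ replicates 1 and 2, so that the zeros do not set the genotypes apart; kan3 was at 0 in all 4 CZ libraries. The part of leaf cells in the GRF3 value was not tested.

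GRF12 was at 64.1 and 59.0 RPM in wild-type CZ and at 80.7 and 78.2 RPM in dcl1-2 CZ (log2 fold change 0.34, standard error 0.14, edgeR adjusted p 0.432). GRF14 was at 24.1 and 21.1 RPM in wild type and 27.6 and 33.3 RPM in dcl1-2 (log2 fold change 0.40, edgeR adjusted p 0.533). In both genes the mutant libraries were the higher ones in the CZ, as in P3, and GRF14 carries the doubt about strand given above. GRF1 was at 30.1 and 29.0 RPM in wild type and 24.6 and 20.3 RPM in dcl1-2 (log2 fold change -0.43, edgeR adjusted p 0.486), and so had the lower values in the mutant in both tissues. In total 2 genes (GRF12 and GRF14) had both mutant libraries above and 2 (GRF1 and GRF3) below, against 22.8% and 18.1% of all genes tested.

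The remaining genes overlapped between genotypes in the CZ. GRF9, which differed most in P3, was at 13.7 and 16.7 RPM in wild-type CZ and 13.6 and 15.6 RPM in dcl1-2 CZ, a log2 fold change of -0.09 (standard error 0.24, edgeR adjusted p 0.943). GRF10, GRF6 and GRF2 had log2 fold changes of -0.04, -0.19 and -0.16. GRF5 was at 18.2 and 13.6 RPM in wild type and at 16.3 and 6.94 RPM in dcl1-2, with the lowest value in 1 mutant library only. GRMZM5G893117 had 9 and 1 counts in wild type and 2 and 0 in dcl1-2, below the 1 RPM needed to enter the test. The sum over the 10 genes was 352 ± 17.8 RPM in wild-type CZ and 348 ± 6.69 RPM in dcl1-2 CZ (SD, n = 2).

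Whether dcl1-2 acted differently in P3 and in the CZ was tested by the difference of the log2 fold changes, fitted by edgeR over all 8 libraries. The difference passed for GRF9 and GRF3, at a background of 2.36% of 23512 genes called, 2.03% as positive (higher in P3) and 0.327% as negative, and was positive for both. For GRF9 it was 3.69 (standard error 0.69, edgeR adjusted p 0.0155) and for GRF3 1.83 (standard error 0.36, edgeR adjusted p 0.0215). In GRF9 the difference came with the rise in P3, and in GRF3 with the lower values of dcl1-2 in the CZ. These calls were not firm: without dcl1-2 CZ replicate 1, wild-type P3 replicate 1, wild-type P3 replicate 2 or dcl1-2 P3 replicate 2, both lost them, at edgeR adjusted p of 0.0514, 0.0751, 0.0946 and 0.0584 for GRF9 and 0.0721, 0.0716, 0.0932 and 0.127 for GRF3. Without dcl1-2 P3 replicate 2 the difference of GRF9 was 2.37.

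For GRF12, the rise in P3 was not shown to differ from the smaller value in the CZ (difference 0.48, standard error 0.18, edgeR adjusted p 0.206). For the other 7 genes the difference lay between 0.05 and 0.87 and did not pass. The difference was positive in all 10 genes, except that with scaling by total count GRF1 and GRF14 came to -0.04 and -0.05; the median was 0.47 against 0.01 over all genes tested. Of all genes called for this difference 86.1% were positive, and 76% with scaling by total count.

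Between tissues of the wild type, most GRF genes were more abundant in the P3 primordium than in the CZ. By edgeR, 6 of the 10 were higher in P3, 2 were lower and 2 did not pass, at a background of 62.3% of genes called, 31.3% as higher and 31% as lower. In RPM, which is not TMM-scaled, the libraries of P3 were all above those of the CZ in 8 of the 10 genes and all below in 2, against 46.9% and 33.9% of all genes tested. The 8 include GRF6 and GRF2, which did not pass the test. These comparisons use the same libraries as those between genotypes, and the difference in library layout comes with them. With scaling by total count the median of all genes moved from 0.02 to 0.24 in wild type and from 0.02 to 0.13 in dcl1-2 (log2), so that single values below are relative to the TMM scale.

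Of the genes that were higher in P3 and above 5 RPM in every CZ library of the wild type, GRF5, GRF3 and GRF1 had the largest log2 fold changes. GRF5 was at 18.2 and 13.6 RPM in wild-type CZ and 143.5 and 95.5 RPM in wild-type P3, a log2 fold change of 2.71 (standard error 0.33, edgeR adjusted p 1.51e-05). GRF3 went from 12.4 and 6.72 RPM to 54.0 and 56.7 RPM, a log2 fold change of 2.32 (standard error 0.26, edgeR adjusted p 5.56e-06). GRF1 went from 30.1 and 29.0 RPM to 130.2 and 94.1 RPM, a log2 fold change of 1.72 (standard error 0.19, edgeR adjusted p 5.59e-06). In each of these genes the lowest P3 library lay far above the highest CZ library. GRF14 and GRF12 were higher in P3 by 1.16 and 0.98 on the log2 scale (edgeR adjusted p 0.000297 and 2.59e-05). The values of GRF14 and GRF5 carry the doubt about strand given above.

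GRMZM5G893117 was near absent from the CZ, with 9 and 1 counts in wild type, and had 77 and 72 counts in wild-type P3. Its fitted log2 fold change of 5.31 (standard error 0.87, edgeR adjusted p 0.000166) depends on the prior count and ran from 4.55 to 7.27 when single libraries were left out. Although it shares the name GRF9 with GRMZM2G124566, that gene ran the other way, with 13.7 and 16.7 RPM in wild-type CZ and 2.59 and 2.67 RPM in wild-type P3. The log2 fold change of GRMZM2G124566 was -2.75 (standard error 0.53, edgeR adjusted p 0.00057). GRF10 was also lower in P3, with 66.7 and 79.4 RPM in the CZ and 46.9 and 60.2 RPM in P3 (log2 fold change -0.67, standard error 0.18, edgeR adjusted p 0.00478). GRF6 and GRF2 were about level, with 44.6 and 36.8 RPM against 44.9 and 55.9 RPM, and 90.0 and 76.8 RPM against 100.2 and 126.9 RPM. Their log2 fold changes were 0.09 and 0.22 (edgeR adjusted p 0.712 and 0.232), and GRF2 passed with scaling by total count (0.44, edgeR adjusted p 0.0329).

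In dcl1-2, 8 of the 10 genes were higher in P3 than in the CZ and none was lower by edgeR, at a background of 65.6% of genes called, 33.3% as higher and 32.3% as lower. In RPM, both P3 libraries were above both CZ libraries in 8 genes and below them in 0, against 45.5% and 38.9% of all genes tested. Among the 10 genes, 9 had a positive log2 fold change, and GRF9 and GRF10 were the ones that did not pass. The 6 genes that were higher in wild-type P3 were higher in dcl1-2 P3 as well, by log2 fold changes of 1.21 (GRF14) to 6.18 (GRMZM5G893117). The last of these rests on 2 and 0 counts in dcl1-2 CZ, depends on the prior count, and ran from 5.27 to 8.90 when single libraries were left out. GRF3 differed by 4.15 (standard error 0.28, edgeR adjusted p 6.04e-08) and GRF5 by 3.16 (standard error 0.34, edgeR adjusted p 3.98e-06). GRF6 and GRF2 joined them at 0.75 and 0.54 (edgeR adjusted p 0.00436 and 0.00907). Without dcl1-2 P3 replicate 2 the value of GRF6 was 0.47 (edgeR adjusted p 0.0934), and GRF2 lost its call without dcl1-2 CZ replicate 2 (0.42, edgeR adjusted p 0.0867) and without dcl1-2 P3 replicate 1 (0.39, edgeR adjusted p 0.111).

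GRF9 and GRF10 passed as lower in P3 in wild type and did not pass in dcl1-2. GRF10 was at 64.2 and 81.5 RPM in dcl1-2 CZ and at 64.5 and 72.0 RPM in dcl1-2 P3 (log2 fold change -0.20, edgeR adjusted p 0.321), and the difference between genotypes in this tissue contrast, which is the same test as above, did not pass for it (0.47, edgeR adjusted p 0.373) while it did for GRF9. GRF9 was at 13.6 and 15.6 RPM in dcl1-2 CZ and at 12.1 and 48.5 RPM in dcl1-2 P3. The groups overlapped, with 1 library of P3 below and 1 above both CZ libraries. The log2 fold change of GRF9 was 0.95 (standard error 0.44, edgeR adjusted p 0.0754) with both P3 libraries, -0.39 without dcl1-2 P3 replicate 2, and 1.61 (edgeR adjusted p 0.000638) without dcl1-2 P3 replicate 1. DESeq2 called it (1.03, adjusted p 0.0381), as did edgeR with no filter on low counts (0.94, adjusted p 0.00374).

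**Figure D3:**
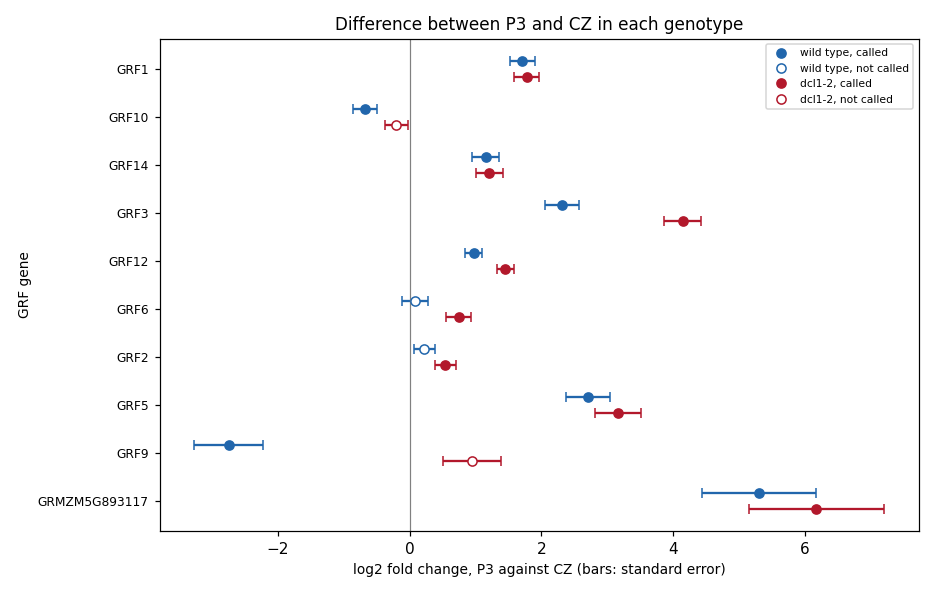
log2 fold change of P3 against CZ (horizontal axis, bars are standard errors) for the 10 GRF genes (vertical axis) in wild type (blue) and dcl1-2 (red); filled points passed edgeR's test at an adjusted p under 0.05. GRF9 lies at -2.75 in wild type and 0.95 in dcl1-2, and 6 genes lie to the right of 0 with filled points in both genotypes.

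With the 4 groups put in order of their mean RPM (without TMM scaling), GRF12 and GRF14 were lowest in wild-type CZ, followed by dcl1-2 CZ, by wild type in P3 and by dcl1-2 in P3. In both genes no neighbouring groups in this order overlapped. In GRF12 there was 64.1 RPM at most in the first, 78.2 to 80.7 RPM in the next, then 135.2 to 146.9 RPM, and at least 224 RPM in the last. For GRF14 this order may hold reads of the overlapping gene. GRF3, GRF6 and GRF2 had dcl1-2 CZ lowest, then wild-type CZ, wild-type P3 and dcl1-2 P3. Of these 3, GRF3 had no overlap between any neighbours, while in GRF6 and GRF2 the genotypes overlapped within each tissue. GRF1, GRF5 and GRMZM5G893117 also had dcl1-2 CZ lowest, and wild-type P3 highest. GRF10 had wild-type P3 lowest and wild-type CZ highest, and GRF9 had wild-type P3 lowest and dcl1-2 P3 highest.

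The precursors of miR396 are the transcripts that DCL1 cuts. Of 7 MIR396 precursors in the table, MIR396a and MIR396e alone reached 1 RPM in a group, and both did so in the CZ. MIR396a was at 4.35 and 5.37 RPM in wild-type CZ and 9.53 and 10.98 RPM in dcl1-2 CZ. Both mutant libraries were above both wild-type libraries, and the log2 fold change of 1.04 (standard error 0.32) did not pass the test (edgeR adjusted p 0.23). MIR396e was at 3.4 and 2.1 RPM in wild type and 2.34 and 4.64 RPM in dcl1-2, so that the genotypes overlapped (log2 fold change 0.31, edgeR adjusted p 0.892).

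In P3, MIR396a had 3 and 0 counts in wild type and 2 and 0 in dcl1-2, and MIR396e had 0 and 3 counts in wild type and 4 and 6 in dcl1-2. No precursor could be tested between genotypes there, and at these depths a change of either could not be seen. Between tissues both were lower in P3 by edgeR, with adjusted p of 0.000168 (MIR396a) and 0.00236 (MIR396e) in wild type and 2.08e-05 and 0.00843 in dcl1-2. MIR396a shares 711 bases with the gene model GRMZM2G178990 on the same strand, whose counts were almost equal to its own (132, 141, 234 and 276 in the CZ libraries), so that the precursor and this gene model cannot be told apart. MIR396e likewise shares 430 bases with GRMZM2G178983 on the same strand, which had 68, 47, 33 and 77 counts in the CZ libraries, and its values carry the same doubt. Among the rest, MIR396c and MIR396d had no count in any library, which allows up to 0.0989 RPM in wild-type CZ replicate 1 and 0.348 RPM in wild-type P3 replicate 2, and MIR396b, MIR396f and MIR396g had at most 6 counts in a library. The small RNA library was of whole wild-type apices, so that mature miR396 was not measured by tissue or in dcl1-2.

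**Figure D4:**
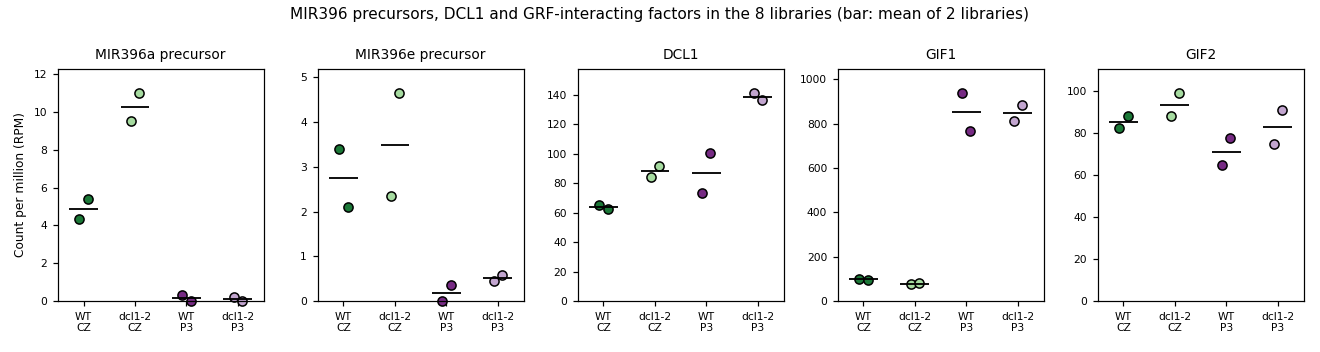
RPM (vertical axis, a scale of its own in each panel that starts at 0) of the precursors MIR396a and MIR396e, of DCL1 and of the GRF coactivators GIF1 and GIF2 in the 2 libraries of each of 4 groups; points are libraries and bars their means. MIR396a and MIR396e lie near 0 in P3, where GIF1 lies between 769 and 936 RPM against 75.5 to 99.7 RPM in the CZ.

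The coactivators were represented by GIF1 (GRMZM2G180246) and GIF2 (GRMZM2G154169). GIF1, which in maize is known to act in leaf growth and in meristems, was at 99.7 and 94.9 RPM in wild-type CZ and 936 and 769 RPM in wild-type P3. Its log2 fold change between these tissues was 2.92 (standard error 0.14, edgeR adjusted p 5.51e-09), and it went in the direction of the 6 GRF genes that were higher in P3. GIF2 was at 82.5 and 88.0 RPM in wild-type CZ and 64.6 and 77.7 RPM in wild-type P3, and thus lower in P3 (log2 fold change -0.48, edgeR adjusted p 0.0145). Between genotypes neither gene passed the edgeR or the DESeq2 test in the CZ (-0.35 for GIF1 and 0.10 for GIF2) or in P3 (0.06 and 0.29).

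Of the 7 further GRF genes most were higher in P3 than in the CZ, and few differed between genotypes. In P3, 1 of 7 passed the edgeR test between genotypes, as higher, against 3.34% of all genes tested. It was GRF11 (GRMZM2G067743), at 47.7 and 51.9 RPM in wild type and 94.2 and 119.2 RPM in dcl1-2. Its log2 fold change was 1.17 (standard error 0.16, edgeR adjusted p 0.000456), and its values in the CZ overlapped, at 20.05 and 14.4 RPM in wild type and 15.9 and 17.1 RPM in dcl1-2. The difference between tissues was 1.27 (edgeR adjusted p 0.0258) and lost its call when any 1 library other than wild-type CZ replicate 2 or dcl1-2 P3 replicate 1 was left out (edgeR adjusted p 0.0676 to 0.175), and with scaling by total count (1.16, edgeR adjusted p 0.0513). In the CZ, 0 of 7 passed in edgeR or DESeq2, and 1 had an unadjusted p under 0.05 in edgeR (GRMZM2G045977, log2 fold change -1.12). Of all 19897 genes tested there, 2098 had such an unadjusted p. Between wild-type tissues 6 were higher in P3 and 1, GRMZM2G045977, was lower, against 31.3% and 31% of all genes tested. The log2 fold changes were 2.14 for GRF13 (GRMZM2G018414) and 2.00 for GRMZM2G178261.

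Position and sequence of the site can be set beside these values. By the study's annotation, GRF11 has its site in the 5′ UTR, as GRF12 does. So do GRF8 (GRMZM2G033612) and GRMZM5G853392, whose log2 fold changes in P3 were -0.60 and 0.05 and did not pass (edgeR adjusted p 0.348 and 0.928). GRF9 has its annotated site in the later part of the reading frame, as GRMZM2G045977 does (0.09, edgeR adjusted p 0.962). The 7 listed genes with the common site ran from -0.38 (GRF1) to 3.60 (GRF9) in P3. GRF2, with C15A, lay within that range at 0.15, as did GRF10, for which no site was analysed. These positions are a description over few genes and were not tested.

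Across the 8 libraries, 8 of the 10 genes followed a common profile. The profile was the mean of the standardised log2(RPM + 1) of the 10 genes, each of which enters it, and it was lowest in the CZ libraries (-0.69 to -0.46) and highest in dcl1-2 P3 (0.71 and 1.04). Pearson's r with it was 0.84 to 0.96 for the 8 genes and 0.01 and -0.35 for GRF9 and GRF10. Outside the list, the gene most like the profile was aoc1 (GRMZM2G077316, r = 0.9966), which encodes an allene oxide cyclase of jasmonate synthesis, whose CZ means were 5.94 RPM (wild type) and 4.38 RPM (dcl1-2) and whose P3 means were 32.2 RPM and 105.3 RPM. GRMZM2G132251, GRMZM2G173280, GRMZM2G025054 and GRMZM2G115841 followed with r of 0.9951 to 0.9964. As many as 4257 of 23502 genes had r over 0.9, over 8 libraries that share the split between tissues, so these values are a description only.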

How the data were processed

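RNA-seq libraries were made from laser-dissected, linearly amplified RNA. After trimming (Trimmomatic) and alignment to B73 RefGen_v3 (TopHat), the authors counted uniquely mapped reads with HTSeq and deposited these raw counts; use of strand is not given in the sources used here. The RPM columns deposited beside them were treated as a score and not used, because their sums exceed what RPM should give. The excess went with tissue: each CZ column summed to 1.01 or 1.02 times that value, whereas P3 columns reached 1.30 to 1.34 times. RPM compared between tissues therefore depends on whether the totals used here or the authors' smaller denominators are divided by. The reason for the split was not tested. For small RNAs, the authors used cutadapt 1.13 and Bowtie 1.1.2 and deposited read counts and RPM per mature miRNA, of which entries of 1 sequence were merged here. Site sequences came from the study's target list.

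Samples were grouped by the labels, and 1 blank count was read as 0. To enter a test, a gene needed 1 RPM on average in a group compared. The quasi-likelihood test of edgeR 4.0.16 (R 4.3.3, limma 3.58.1) with TMM scaling was run per tissue for genotypes, and over all 8 libraries in 4 groups for tissues and for the difference. Adjustment was by Benjamini-Hochberg over every gene tested, at a threshold of 0.05. The standard error given is the size of the log2 fold change divided by the root of F. Within a group, libraries differed by more than sampling noise (chi-square per degree of freedom 5.92 to 23.8). The 10 genes and all lists were chosen with earlier results of these data known. All 10 are named. Of other lists, up to 4 genes that passed and precursors of at least 1 RPM are given. GRMZM2G045977, GRF8, GRMZM5G853392, kn1, knox7 and the KANADI and YABBY genes named above were added after their values were seen. Alternatives were DESeq2 1.42.0, other scalings, filters and models, a fold cutoff, P3 counts halved and single libraries left out. On simulated data, a change of 1 on the log2 scale was recovered for 28% of genes in P3 and 51% in the CZ, and a change of 2 for 76% and 96%. Of the calls, 2.8% in P3 and 4.5% in the CZ were false. The changed genes had at least 2 RPM in the wild type of both tissues. Their spread was drawn from 1 estimate over all 8 libraries. These shares therefore need not hold for genes nearer 1 RPM or for the spread within a single tissue. Python 3.11.15 (pandas 2.3.3, scipy 1.17.1, matplotlib 3.10.9) was used for tables and plots. RefSeq names are from another assembly and served as names only; coordinates are those of the count table.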

Additional observations from a re-analysis of the deposited data

Results flagged for a closer look

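The effect of dcl1-2 differed between P3 and the CZ by edgeR's test of the difference itself in 2 of the 10 GRF genes, at a background of 2.36% of 23512 genes called. In GRF3 (GRMZM2G105335) the log2 fold change was higher in P3 by 1.83, and in GRF9 (GRMZM2G124566) by 3.69. Both calls were lost without dcl1-2 CZ replicate 1 (edgeR adjusted p 0.0721 for GRF3 and 0.0514 for GRF9), wild-type P3 replicate 1 (0.0716 and 0.0751), wild-type P3 replicate 2 (0.0932 and 0.0946) or dcl1-2 P3 replicate 2 (0.127 and 0.0584).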

How the results depend on the processing

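With 2 libraries a group, p-values rest on the spread between these libraries, which edgeR moderates by that of other genes, and on no further material. The lower depth of the P3 libraries (at most 10328582 counts) limits genes near 1 RPM. Of 375 single-gene values under other settings, 366 kept direction and side of the threshold, and of 332 with a library left out, 292 did. Counts over all genes moved most. For dcl1-2 against wild type in the CZ, 58 genes became 697 with no filter, 137 at a mean of at least 5 RPM, 345 with DESeq2, 308 with a replicate block and 243 with all 8 libraries in 1 model, and 42 to 674 with a library left out. In P3, 1012 became 1686 with no filter, 1610 with a replicate block, 432 with all 8 libraries, 622 with a log2 cutoff of 1, and 533 to 1847 with a library left out. For the difference, 555 became 1589 with no filter, 1022 with DESeq2, and 79 to 911 with a library left out. Between genotypes, the deviations of libraries with the same replicate number were hardly correlated (0.06 in the CZ and 0.01 in P3). Between tissues the correlation was -0.11 in wild type and -0.01 in dcl1-2. These values cannot show whether such libraries were paired, and the block changed no GRF call.

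Among the GRF genes, 1 was called lower in the CZ with no filter, with DESeq2 and with all 8 libraries, and 0 to 1 with a library left out. In P3, 1 was called higher with a log2 cutoff of 1; with a library left out, 1 to 3 were called higher and 0 to 1 lower. For the difference 0 to 2 were called higher with a library left out, and for wild-type P3 against CZ 1 was called lower with a log2 cutoff of 1. In dcl1-2, 7 to 8 were higher in P3 with a library left out. The log2 cutoff of 1 also removed GRF12 (0.98) from the genes called higher in P3 in wild type. In dcl1-2 it removed GRF6 (0.75) and GRF2 (0.54). Values that were not called changed sign as follows. The difference of GRF1 (GRMZM2G034876) and GRF14 (GRMZM2G098594) was -0.0385 and -0.0469 with scaling by total count, and ran from -0.19 to 0.37 and from -0.22 to 0.40 with a library left out. That of GRF5 (GRMZM2G129147) ran from -0.0332 to 1.21 and that of GRMZM5G893117 from -1.11 to 3.59. In the CZ, leaving out a library gave -0.22 to 0.12 for GRF10 (GRMZM2G096709), -1.23 to 0.0109 for GRF5 and -0.24 to 0.10 for GRF9 (GRMZM2G124566), and in P3 -0.32 to 0.34 for GRF5. Between tissues it gave -0.0345 to 0.21 for GRF6 (GRMZM2G041223) in wild type and -0.39 to 1.61 for GRF9 in dcl1-2. The share of miR396 was 0.0121% when entries were not merged by sequence. Causes were not tested.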
